A study of Drosophila melanogaster with 4 samples.

Results

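Whole adult female flies of Drosophila melanogaster with little Kdm5 were compared with wild type flies that had not been stressed. All genes with RPKM (reads per kilobase of deposited gene length and per 1e6 mapped reads) of at least 1 in either library of unstressed flies were taken. That gave 8364 of 12073 gene IDs found over all libraries, and 3709 IDs were below the minimum. Ptp99A, at 0.979 RPKM in wild type and 1.00 in the mutant, lay just inside the minimum, and CG30184, at 0.999 and 0.47, just outside it. The wild type was w1118, and the mutant was w1118 with the kdm5 allele pair K6801/10424. Both were 1 to 3 days old and fed for 6 hours on 5% sucrose. A second library of each genotype, from flies given 20 mM paraquat in the same sucrose for the same time, served only to show whether a difference between the genotypes was seen again. Paraquat is a herbicide that generates superoxide in cells. Each of the 4 groups was 1 library of poly-A RNA from flies extracted in groups of 5, and whether the mutant shared the rest of the wild type's genetic background is not given in the sources used here.

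Kdm5, also called Lid in flies, is a histone demethylase that removes methyl groups from lysine 4 of histone H3, a mark of active promoters. It works with partners such as the Sin3A deacetylase complex and can both repress and activate genes. In Drosophila it is known for roles in growth, oogenesis, the gut, immunity and redox balance.

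Since each group is 1 library, no difference could be checked against replicates and no p-value was computed. Differences are of log2(RPKM + 1), mutant minus wild type, and a gene is called higher or lower at a difference of at least 1 in size. Folds are ratios of RPKM, with 95% exact intervals that cover counting error only. Where 4 values follow a gene name, they are its RPKM in the wild type control, the mutant control, wild type with paraquat and the mutant with paraquat, in that order. The libraries held 27.9, 28.3, 28.9 and 29.1 M reads in the same order (M, 1e6). A floor of 3 reads was used for absence, which for 1 kb of length is 0.107 RPKM in wild type controls and 0.106 in mutant controls. The yolk protein genes Yp1 to Yp3, which mark females, stood at 2069 to 3895 RPKM in the wild type control and 2423 to 4296 in the mutant control. Of 8 male accessory gland genes none reached the minimum, and they had 3 reads in all in each of these libraries.

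The wild type control library stood apart. The SD of its differences over genes was 0.723 from the mutant control and 0.752 and 0.736 from the paraquat libraries of wild type and mutant. Wild type with paraquat lay between, at an SD of 0.590 from the mutant control and 0.528 from the mutant with paraquat. The closest pair was the mutant control and the mutant with paraquat, at 0.279. Every difference below rests on that library, so the lists are also given between the genotypes under paraquat, a pair that leaves it out and shares no library with the control pair. The part of the wild type control library in the results that did not recur there was not tested.

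Kdm5 itself, on 2L, was at 43.4, 2.06, 22.5 and 2.03 RPKM, from 12175 reads in the wild type control and 586 in the mutant control. Both mutant libraries were far below both wild type libraries. The nearest annotated genes differed little, at −0.08 for eIF4A, a translation factor, −0.20 for ifc, a sphingolipid desaturase, and −0.20 for Tsp26A, a tetraspanin. The exception was Gal, a beta-galactosidase gene that overlaps Tsp26A, at 1.77, 8.34, 4.84 and 5.09 RPKM, a difference of 1.75 in the control pair and 0.06 under paraquat. Over wider windows the neighbourhood was close to the genome: within 1000 kb of Kdm5 9 of 154 genes were higher and 8 lower, and within 3000 kb 7.17% of 474 genes were higher and 5.70% lower.

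Of the 8364 genes, 548 were higher in the mutant control (6.55%) and 481 lower (5.75%), together 12.3%. The median gene differed by −0.19, with quartiles of −0.52 and 0.27. These shares are the background for every count of list members below. Some lists share members, so their counts are not separate results. Differences of at least 2 were seen for 98 higher genes (1.17%) and 46 lower genes (0.550%), and of at least 4 for 10 and 4. Genes higher in the mutant had median levels of 4.31, 15.4, 9.57 and 14.4 RPKM, so the wild type library with paraquat lay between the wild type control and the mutant. Genes lower in the mutant had median levels of 20.5, 7.86, 8.59 and 7.28, so the wild type library with paraquat was close to the mutant. Both sets were picked by their control values, so the place of wild type with paraquat is in part a result of that choice. The split into higher and lower depended on scaling. Of the called genes 53.3% were higher, against 64.9% with median-ratio scaling of 4 libraries, 68.4% with upper-quartile scaling and 75% with median-ratio scaling of the control libraries alone, which shifted the median gene by 0.10, 0.13 and 0.20. The last, chosen after the data were seen and called control-pair scaling below, is given beside lists whose count it moved by over 1.5 times.

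**Figure D1:**
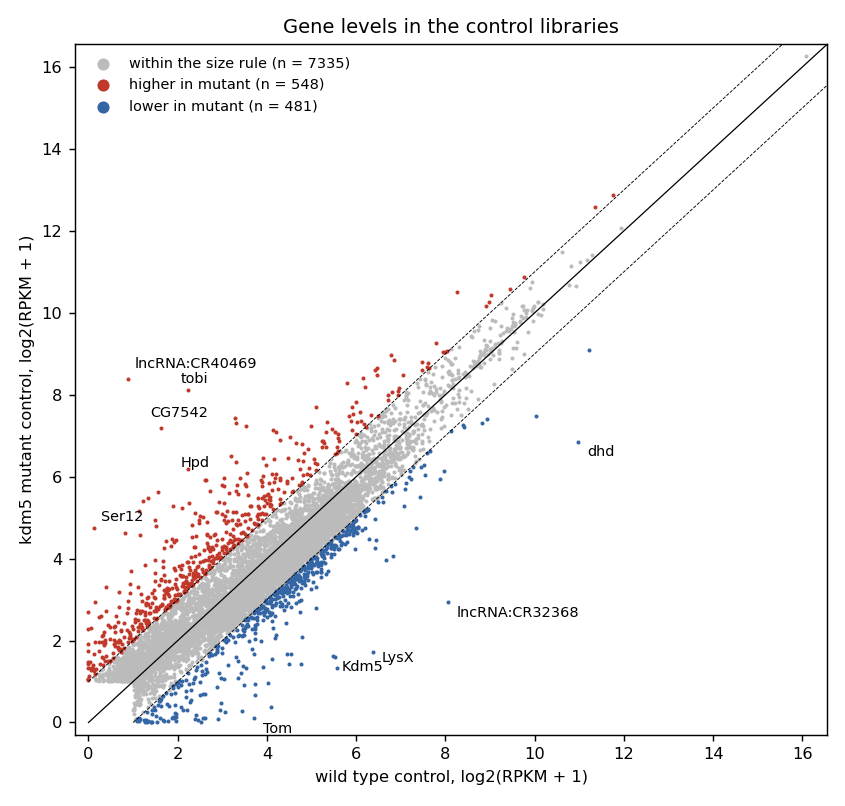
Level of each of the 8364 genes in the wild type control (x axis) and the mutant control (y axis), both as log2(RPKM + 1), with genes past the size rule in red (548 higher) and blue (481 lower). The solid line marks equal levels and the dashed lines a difference of 1; lncRNA:CR40469 and tobi lie farthest above, and lncRNA:CR32368 and LysX farthest below.

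Under paraquat 195 genes were higher (2.30% of 8487) and 229 lower (2.70%), together 5.00%. Of the genes higher in the control pair 135 were higher again, 24.6% of that list and 69.2% of the paraquat list. Of those lower in the control pair 87 were lower again, 18.1% and 38% of the lists. The genes higher in controls had a median difference of 0.43 under paraquat and those lower a median of −0.13, where all genes had 0.08. Opposite calls were made for 24 genes that were higher in controls and lower under paraquat, and for 3 the other way. A stricter rule asked that both mutant libraries lie beyond both wild type libraries by at least 1: 106 genes were higher (1.23% of 8611) and 70 lower (0.813%), together 2.04%. All of them are called in the control pair by construction, since the rule includes that difference. Separation of the genotypes without a size rule was not counted over all genes. Where it is given below, it has no background share. It is given for genes picked by their values, so it describes those genes alone.

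Among the 15 genes furthest higher, lncRNA:CR40469, a noncoding RNA gene on the X chromosome, was at 0.836, 334, 1.45 and 336 RPKM. That was 399-fold in the control pair (171 to 1231), from 5 and 2023 reads, and the libraries split by genotype with nothing between. These reads covered 48.6% and 52.8% of its 214 bases, so the many mutant reads came from part of a short gene. Ser12, a serine protease gene, was at 0.0847, 25.8, 0 and 24.7 RPKM, from 2 and 616 reads in controls (304-fold, 83.8 to 2516). CG7542, whose product is a predicted serine protease, was at 2.11, 146, 1.41 and 100.02 RPKM. Drsl4, a drosomycin-like antifungal peptide gene, was at 1.33, 41.6, 0.857 and 20.5. In these 4 genes both wild type libraries were low and both mutant libraries high.

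Others of the 15 were intermediate in wild type with paraquat. The alpha-glucosidase gene tobi, which overlaps the gene rha, was at 3.69, 277, 36.6 and 231 RPKM. CG32444 was at 8.82, 158, 27.1 and 170.3, CG3699 at 8.70, 171, 26.2 and 129, and Map205, a microtubule-binding protein gene, at 0.756, 23.7, 3.80 and 21. The fat body gene Fbp1, at 1.93, 48.3, 17.5 and 23.1, differed by 0.38 between the paraquat libraries. The metallothionein MtnE was at 3.70, 71.8, 31 and 151, so the mutant was higher in both conditions and its highest value was under paraquat. CG3999, a glycine decarboxylase gene, was at 1.24, 22.9, 1.57 and 6.38.

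Among the 15 furthest lower, lncRNA:CR32368, a noncoding RNA gene on 3L, was at 265, 6.63, 251 and 6.46 RPKM (39.9-fold lower in controls, 31.9 to 50.8). The lysozyme gene LysX was at 81.9, 2.32, 57.1 and 4.15 (35.3-fold lower, 25.5 to 50.4). CG33109 was at 46.4, 1.52, 29.4 and 1.68, CG31041 at 45.3, 2.03, 57.6 and 1.73, and CG12934 at 16, 0.300, 20.5 and 0.219. CG10725, which encodes a chitin-binding protein, was at 26.1, 1.67, 27.2 and 2.83. In each of these the genotypes were far apart, with smaller differences between the libraries of 1 genotype. dhd, a thioredoxin of the female germline whose ovarian transcription is known to need Kdm5, was at 2014, 114, 775 and 110.4 RPKM, so the wild type libraries also differed between themselves. Pms2, a mismatch repair gene that overlaps unc-5, was at 21.4, 1.69, 7.95 and 1.37, and the UDP-glycosyltransferase Ugt36E1 at 22.1, 2.19, 11.6 and 2.60.

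**Figure D2:**
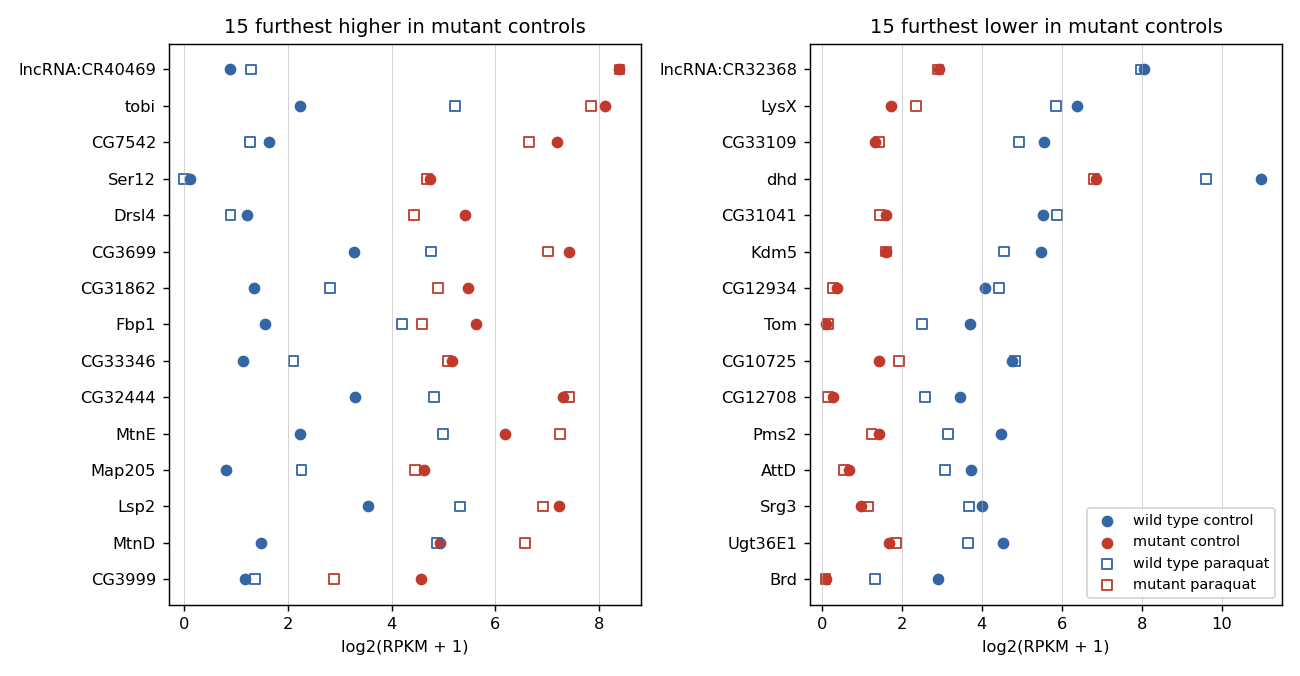
Level in each of the 4 libraries, as log2(RPKM + 1) on the x axis, for the 15 genes furthest higher (left) and furthest lower (right) in the mutant control, filled circles for controls and open squares for paraquat, blue for wild type and red for the mutant. lncRNA:CR40469 and lncRNA:CR32368 split by genotype alone. In wild type with paraquat Fbp1 lies near the mutant with paraquat, and MtnD near the mutant control.

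Sugar digestion was the list with the highest median among those with at least 10 members at the minimum. Of 12 starch and sugar digesting enzymes 11 were higher and none lower, with a median of 2.27 where all genes had −0.19. Under paraquat 4 of 12 were higher, with a median of 0.64. Mal-A3, a maltase gene, was at 4.20, 33.4, 9.97 and 28.5 RPKM. Mal-A6 was at 33.5, 208, 131 and 198, so its wild type libraries differed more than the paraquat pair. The amylase gene Amy-p was at 54.4, 310.0, 109 and 266. Amyrel, an amylase-related gene that overlaps gprs, had 2 reads in the wild type control and 179 in the mutant control, an 88.4-fold ratio (24.1 to 735), and 0.172 and 2.74 RPKM under paraquat.

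Of 13 genes of gluconeogenesis, glycogen and trehalose 5 were higher and none lower (median 0.51; 0.31 under paraquat, 2 higher and 1 lower). Pepck1, which commits carbon to glucose synthesis, was at 86.9, 356, 349 and 492 RPKM, and wild type with paraquat was level with the mutant control. UGP, which makes UDP-glucose for glycogen, was at 15.1, 45.8, 18.1 and 39.5. fbp, the fructose-bisphosphatase, was at 14.3, 45.3, 15.3 and 38, and the trehalose synthase Tps1 at 48.1, 117, 50.1 and 69.6. In these 4 genes both mutant libraries were above both wild type libraries, narrowly so for Pepck1. The genes were picked by their values, so this count, with no background share, describes them alone. Galk, the galactokinase, a gene chosen after its values were seen, was at 13.7, 43.6, 11.2 and 30.3 RPKM, higher in the mutant in both conditions.

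Amino acid breakdown was higher in 8 of 19 genes and lower in none (median 0.70), and again in 6 of 19 under paraquat (median 0.53). The steps from phenylalanine to fumarate were then listed after their values were seen. In that list of 7, 5 were higher in each pair and none lower, with medians of 2.13 in controls and 1.38 under paraquat. Hn, the phenylalanine hydroxylase that opens the route, was at 13.9, 57.2, 13.9 and 38.2 RPKM (4.11-fold in controls, 3.85 to 4.40). Tat, the tyrosine aminotransferase, was at 2.17, 14.3, 4.80 and 17.4. Hpd, the next enzyme, was at 7.21, 61.3, 35.6 and 119 (8.50-fold, 7.60 to 9.53). Homogentisate dioxygenase, hgo, was at 0.609, 6.05, 4.07 and 9.84, and Faa, which completes the pathway, at 1.17, 8.89, 4.89 and 14.4. All 5 were higher in the mutant than in wild type within each condition, and 4 of them, all but Hn, were also higher in wild type with paraquat than in its control. GstZ1 and GstZ2, the candidates for the isomerase step, differed by −0.72 and 0.92 and were not called.

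Enzymes that handle glycine, sarcosine and folate-bound carbon, a list also chosen after values were seen, were higher for 6 of 8 (median 1.52) and in 5 under paraquat (median 1.12). Gnmt, which methylates glycine, was at 0.945, 12.1, 3.18 and 17.5 RPKM, and the sarcosine dehydrogenase Sardh at 0.599, 8.17, 0.880 and 3.52. pug, a folate enzyme, was at 8.98, 54.7, 5.42 and 19, and the serine hydroxymethyltransferase Shmt at 37.9, 113, 29.4 and 66.2. Sam-S, which makes S-adenosylmethionine, the methyl donor for histones, and Ahcy, which clears its product, were not called. The higher genes of this list therefore did not include those of the methyl donor step.

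Purine enzymes, a further list chosen after values were seen, were higher for 7 and lower for 1 of 14 (median 0.86; 9 and 0 with control-pair scaling), and higher in 5 and lower in none under paraquat (median 0.55). Prat2, which encodes an enzyme of the committed step of purine synthesis, was at 5.58, 49.4, 7.75 and 37.9 RPKM (8.84-fold, 8.02 to 9.77), whereas its paralog Prat was not called. Of the later steps, Gart was at 10.4, 33.3, 10.003 and 26.6, Paics at 33.8, 78.4, 28.4 and 57.2 and Pfas at 23, 49.2, 15.7 and 39.2. On the breakdown side, CG16758, a purine nucleoside phosphorylase, was at 5.22, 59.8, 5.01 and 39.4, and ry, xanthine dehydrogenase, at 2.91, 21.1, 3.75 and 14.2. Both mutant libraries were above both wild type libraries for each of these 6 genes. They were picked by their values, so this count, with no background share, describes them alone. Ada, adenosine deaminase, was lower, at 6.42, 2.36, 3.02 and 2.18 RPKM.

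**Figure D3:**
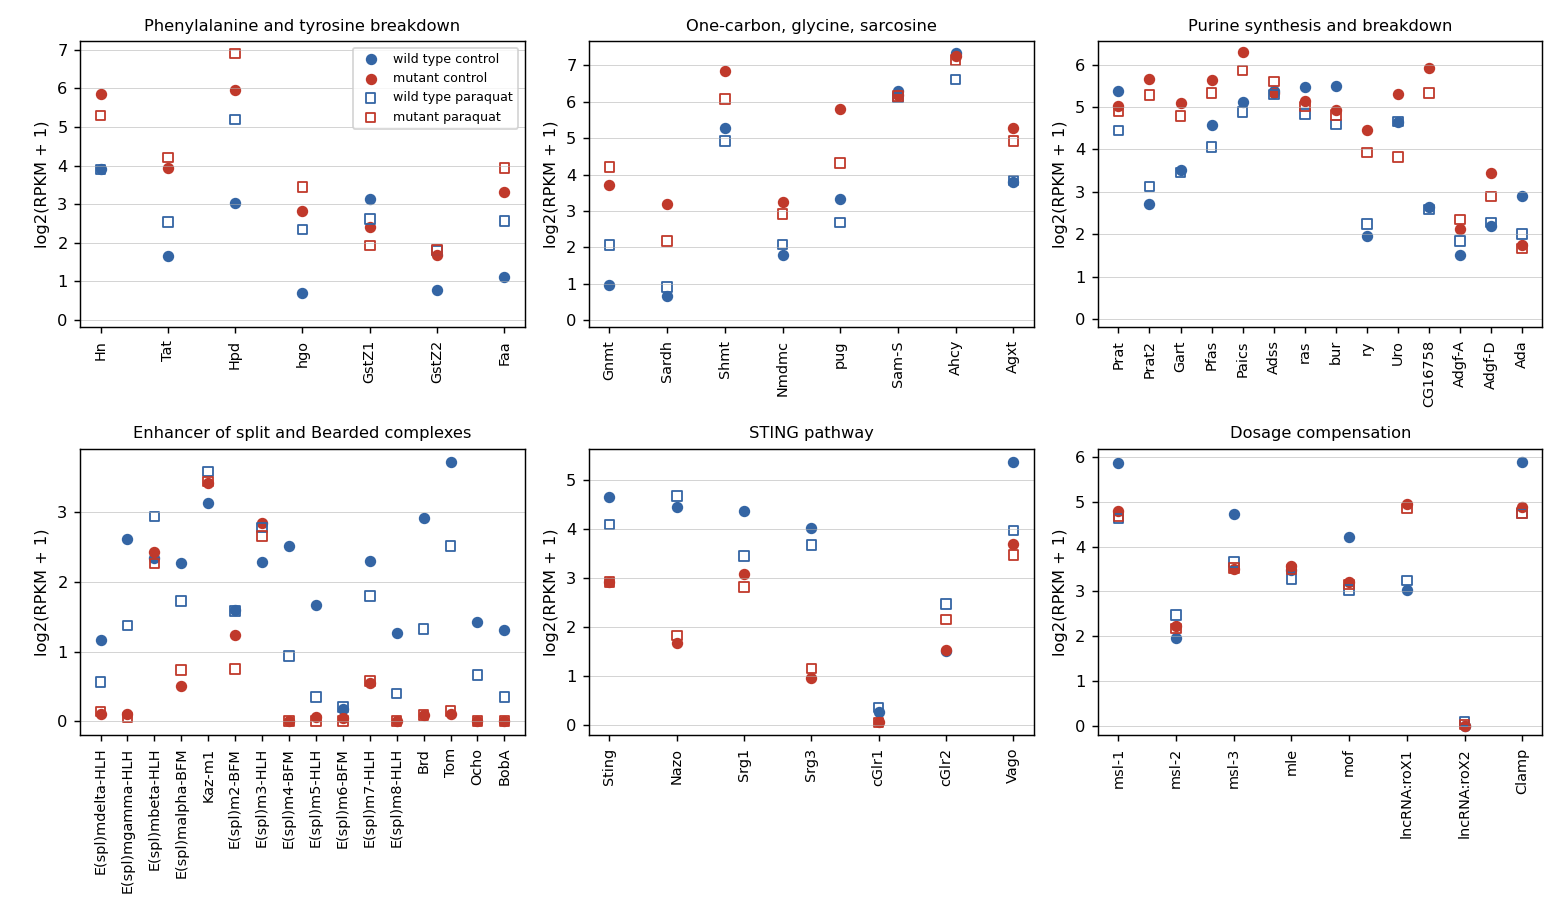
Level in each of the 4 libraries, as log2(RPKM + 1) on the y axis, for the members in the files of 7 lists chosen after their values were seen, in 6 panels, with filled circles for controls, open squares for paraquat, blue for wild type and red for the mutant. Hpd, pug, Prat2 and CG16758 were higher in both mutant libraries, Sting, Nazo, Tom and Brd were lower in both, and in the dosage compensation panel lncRNA:roX1 is higher in both mutant libraries by more than the size rule, while msl-1, msl-3 and mof are high in the wild type control only.

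Nuclear genes of energy metabolism moved by less and did so mostly in the control pair. Of 65 nuclear respiratory chain genes 6 were higher and none lower, with a median of 0.81, and none was called under paraquat, where the median was 0.01. The count rests on the threshold: 35 were higher with control-pair scaling. Of 21 tricarboxylic acid cycle genes 4 were higher and none lower (median 0.89; 0.18 under paraquat), and 15 were higher with the same scaling. Aconitase, mAcon1, was at 178, 442, 311 and 395 RPKM and the citrate synthase gene kdn at 79.2, 182, 185 and 178, so wild type with paraquat lay with the mutant. Of 15 transcripts of the mitochondrial genome 5 were higher and none lower in controls (median 0.71), and 7 were lower and none higher under paraquat (median −0.75). mt:CoI, a subunit of cytochrome c oxidase, was at 2604, 6127, 10209.5 and 7091 RPKM, its lowest value being that of the wild type control.

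The muscle, cuticle, larval fat body and haemocyte lists also had more higher than lower genes in the control pair. The neuron and phototransduction lists, given below, had few calls. In RNA of whole flies, fewer cells of a type and less RNA per cell cannot be told apart. Of 26 muscle sarcomere genes 11 were higher and none lower (median 0.94), but none was higher and 1 lower under paraquat (median −0.37). The giant sarcomere kinase Strn-Mlck was at 7.64, 35.1, 26.3 and 28.3 RPKM, and Mhc, the muscle myosin, at 132, 355, 425 and 328. In both genes the wild type control alone was low. Of 25 cuticle protein genes 13 were higher and 2 lower (median 1.01; 18 and 0 with control-pair scaling), against 2 higher and 6 lower under paraquat (median −0.77). Cpr76Bd was at 4.57, 28, 17.5 and 21, while Cpr49Ac, at 0.208, 5.04, 0.770 and 2.54, was higher in the mutant in both pairs. Larval serum and larval fat body genes, for storage proteins made before adult life, were all higher (6 of 6, median 2.77) while 1 was higher under paraquat (Lsp2; median 0.07). Of 11 haemocyte genes 4 were higher, none lower (median 0.62), and none was called under paraquat (median 0.29). Sr-CI, a scavenger receptor of haemocytes, was at 1.13, 5.76, 3.36 and 6.71. Their part in the differences of other lists was not tested.

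Gut genes outside sugar digestion split in both directions. Of 28 gut serine proteases 5 were higher and 3 lower (median 0.26; 8 and 2 with control-pair scaling), and 3 were higher and 5 lower under paraquat (median −0.31). Jon99Ci, a digestive protease, was at 17.4, 135, 43.3 and 87.7 RPKM and Jon44E at 3.98, 21.9, 4.38 and 10.8, higher in the mutant in both pairs. Jon25Bi, at 30.7, 151, 137 and 72.8, and Jon66Ci, at 2.82, 0.337, 1.16 and 0.246, did not share that pattern. Members of this family resemble each other closely, so their unique reads are uncertain on the absolute scale. Of 10 lipases 4 were higher and 2 lower (median 0.54; 2 and 2 under paraquat, median 0.04), with CG8093 at 16.8, 85.3, 29.99 and 71.1 and CG2772 at 2.85, 0.177, 3.34 and 0.0862. Of 23 peritrophins and chitin-binding proteins 8 were higher and 1 lower (median 0.76), against 2 and 1 under paraquat (median −0.24). The mucin-related Mur29B was lower, at 20.3, 4.41, 19.5 and 4.41, and the imaginal disc growth factor Idgf5 higher, at 4.14, 18.6, 4.21 and 11.2. Of 26 odorant-binding proteins, many of which are also made outside the antennae, 7 were higher and 3 lower (median 0.49), whereas 1 was higher and 6 lower under paraquat (median −0.52). Obp99b was at 16.5, 139, 74.6 and 140.3, and Obp57a at 85.7, 21.1, 111 and 18.2.

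Immune genes were higher and lower within the same class. Of 19 antimicrobial peptide genes 8 were higher and 2 lower (median 0.79), and 7 higher and 2 lower under paraquat (median 0.52). The Bomanins, short peptides downstream of the Toll receptor, were listed after values were seen: 6 of 11 were higher and none lower (median 1.49), and 5 under paraquat (median 0.73). BomBc1 and BomBc2 are also in the antimicrobial peptide list, so the counts in part repeat each other. BomBc1 was at 2.69, 37.9, 3.97 and 33.7 RPKM, and BomS2 at 85.3, 388, 76.7 and 266. DptA, a diptericin under the Imd pathway, was at 8.87, 49, 1.60 and 18.9. In the opposite direction stood the attacin AttD, at 12.3, 0.604, 7.52 and 0.462, and Drsl3, at 14, 1.57, 13.8 and 0.669, a relative of Drsl4. The genotypes lay apart by at least 1 over the 4 libraries in these 5 genes, 3 of them higher and 2 lower in the mutant. These 5 genes were named for the size of their differences or after their values were seen. The count is therefore not comparable with the 2.04% of all genes that did so. TotC, a secreted Turandot stress peptide, was lower, at 26.7, 3.22, 13 and 0.522. Of 29 recognition and signalling genes 6 were higher and 2 lower (median −0.16; 9 and 0 with control-pair scaling), and 1 and 2 under paraquat (median 0.07). Among them SPE, a protease that activates the Toll ligand, was at 6.37, 21, 15.4 and 14.6, and key, a subunit of the Imd kinase, at 37.8, 17.1, 28.4 and 16.

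Genes of the STING pathway, which senses cyclic dinucleotides in antiviral defence, were on the lower side. In this list, chosen after values were seen, 5 of 6 members at the minimum were lower and none higher (median −1.69), and 3 were lower under paraquat (median −0.90). Sting itself was at 24, 6.61, 16 and 6.58 RPKM. The STING-regulated genes Nazo and Srg3 were at 20.9, 2.20, 24.6 and 2.56 and at 15.2, 0.961, 11.8 and 1.23, which was 9.49-fold (6.99 to 13.2) and 15.8-fold (12.7 to 19.9) lower in controls. Srg1 was at 19.5, 7.43, 9.89 and 6.03, and the antiviral factor Vago at 40.1, 12, 14.67 and 10.05. Each of these 5 genes was lower in both mutant libraries than in both wild type libraries, although for Srg1 and Vago the paraquat pair was not called. That count has no background share, and the list was chosen after values were seen. The receptor gene cGlr2 was not called.

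Detoxification genes were higher in part. Of 54 cytochrome P450s 17 were higher and 1 lower (median 0.55), of 34 glutathione S-transferases 10 and 1 (median 0.45), and of 26 UDP-glycosyltransferases 10 and 1 (median 0.62). Under paraquat the counts were 7 and 4, 2 and 1, and 2 and 5, with medians of 0.05, −0.01 and −0.11. Cyp6a20, a P450 linked to male aggression, was at 1.87, 26.9, 7.58 and 34.9 RPKM, Cyp4e3 at 13.9, 87.4, 61.8 and 181, and Ugt35C1 at 3.29, 36.7, 14.3 and 48.8. These 3 were higher in the mutant in both pairs. Cyp28d1, at 6.56, 40.8, 18.6 and 25.2, and GstD1, at 72, 289, 385 and 486, were called in the control pair alone. The antioxidant enzymes had 1 of 13 higher, the peroxiredoxin Prx6c at 5.86, 15.7, 11.3 and 20.4, with a list median of 0.14, and 3 were higher with control-pair scaling and none was called under paraquat (median −0.03). Of 5 metallothioneins 3 were higher and none lower (median 1.47), against 2 and 2 under paraquat (median −0.16). Of 17 chaperones 2 were higher and 1 lower (median −0.26; 4 and 1 with control-pair scaling; 1 and 0 under paraquat, median 0.17), among them Hsp23, a small heat shock protein, at 10.8, 46.3, 45.8 and 59.5.

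Many genes of cell division and of the female germline were lower in the control pair. Of 41 DNA replication and cell cycle genes 25 were lower and none higher (median −1.05), and none was called under paraquat (median 0.21). With control-pair scaling 10 were lower. Orc2, a subunit of the complex that marks replication origins, was at 31.5, 9.71, 9.94 and 8.41 RPKM. The primase subunit Prim2 was at 33.9, 11.7, 11.3 and 10.1, and fzy, which drives exit from mitosis, at 69.3, 24.9, 24.1 and 22.7. The wild type control alone was high in these genes. In a list of 20 meiosis and spindle genes, chosen after values were seen, 13 were lower and none higher (median −1.10; 0.16 under paraquat), or 6 with that scaling. Both lists hold mad2, so they are not separate results. bora, which activates the Aurora kinase, was at 36, 11.8, 11.2 and 8.78, and nod, a kinesin of meiotic chromosomes, at 23.9, 9.49, 8.10 and 8.92.

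Of 36 female germline and oocyte genes 10 were lower and none higher (median −0.79; 6 with control-pair scaling), and 1 was lower under paraquat, dhd (median 0.24). BicC, an RNA-binding protein of the oocyte, was at 186, 65, 78.1 and 53.9 RPKM and nanos, a translational repressor of the posterior pole, at 12.3, 4.02, 6.17 and 3.86. png, a kinase gene of the oocyte-to-embryo transition, was at 38.6, 14, 12.9 and 12.4. The piRNA pathway, which silences transposons in the germline, had 1 of 22 members lower, cuff at 3, 0.827, 2.07 and 1.05 (list median −0.36), and none was called under paraquat (median 0.41). Of 15 eggshell genes 4 were lower and 1 higher (median −0.47; 3 and 2 with control-pair scaling), and 4 higher and 1 lower under paraquat (median −0.40). The chorion gene Cp18 was at 1049, 179, 203 and 153 RPKM, and Cp15 at 2362, 540.2, 212 and 228. Yolk proteins and their uptake genes had no call among 5 (median 0.14), and 1 was higher under paraquat (median 0.62). Ilp8, an insulin-like peptide made in follicle cells of the ovary, was at 17.1, 3.18, 2.91 and 3.59, high in the wild type control alone.

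**Figure D4:**
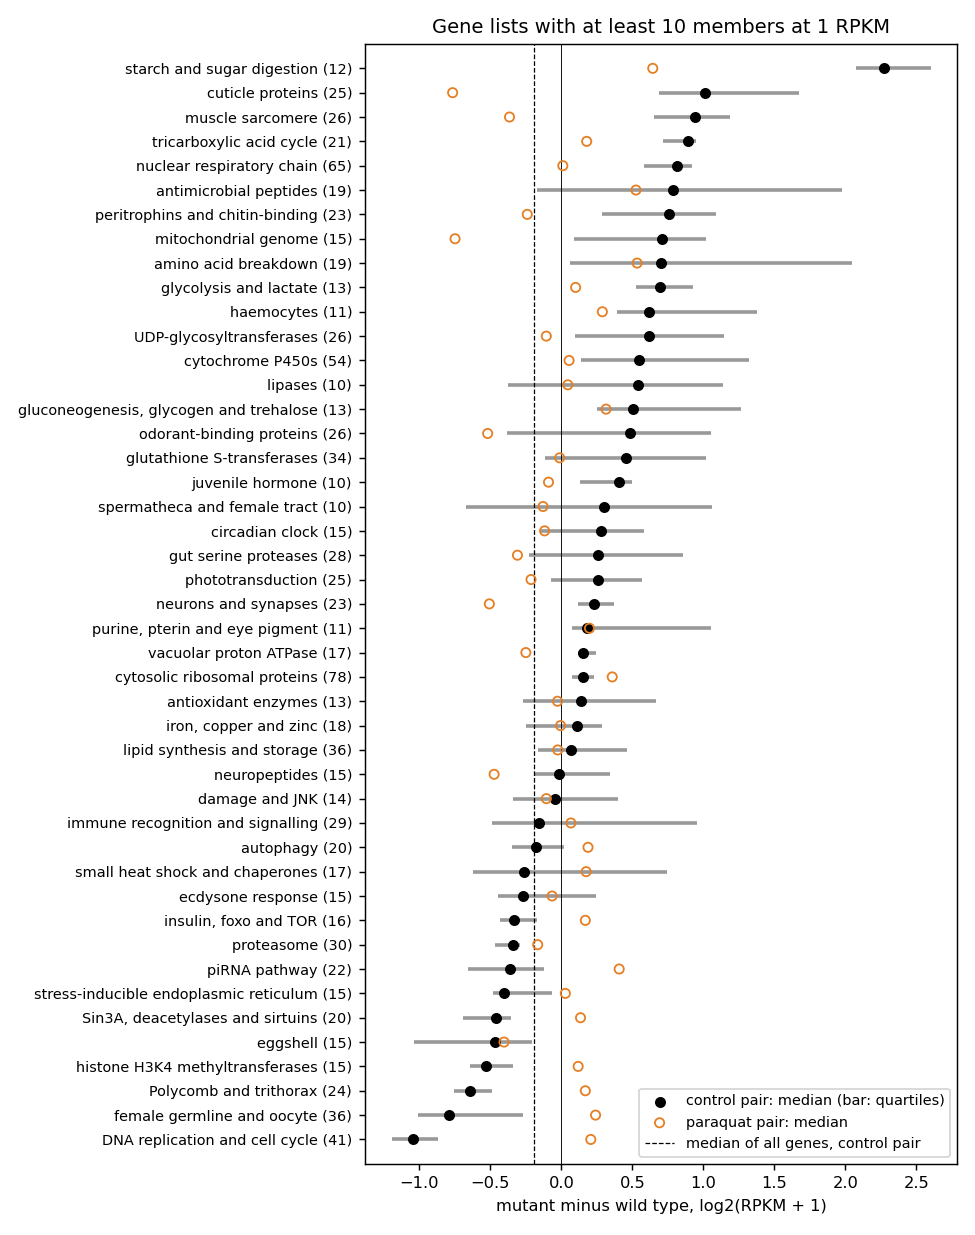
Median difference, mutant minus wild type in log2(RPKM + 1), of the lists with at least 10 members at 1 RPKM (number in brackets), with filled points and quartile bars for the control pair, open circles for the paraquat pair and a dashed line at the median of all genes in controls (−0.19). Sugar digestion is at 2.27 in controls and 0.64 under paraquat, amino acid breakdown keeps 0.70 and 0.53, and muscle, cuticle, germline and DNA replication medians are on opposite sides of 0 in the 2 pairs.

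The Bearded and Enhancer of split complexes are clusters of small genes that respond to Notch signalling. The Bearded genes had almost no reads in the mutant, and part of the Enhancer of split genes were lower. Both lists were chosen after values were seen, since members appeared among genes with fewer than 3 reads in 1 control library. All 4 Bearded complex genes were lower (median −2.12; −1.80 under paraquat, 2 lower), with 506, 3, 179 and 4 reads in all over the 4 libraries. Tom was at 12.2, 0.0734, 4.70 and 0.107 RPKM, from 327 and 2 reads in controls (166-fold lower, 45.5 to 1373), and Brd at 6.53, 0.0664, 1.495 and 0.0646, from 97 and 1 reads. Ocho and BobA had 56 and 26 reads in the wild type control and 0 in either mutant library. Both wild type libraries held more reads than both mutant libraries for each of the 4 genes, again with no background share.

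Of 11 Enhancer of split genes at the minimum 7 were lower and none higher (median −1.26; −0.83 under paraquat, 2 lower). E(spl)m4-BFM had 100 reads in wild type controls, 20 in their paraquat counterpart and 0 in either mutant library. E(spl)mgamma-HLH, a repressor of neural fate, was at 5.15, 0.0776, 1.59 and 0.0377 RPKM, and E(spl)m7-HLH at 3.94, 0.468, 2.47 and 0.490. The neighbours E(spl)mbeta-HLH, E(spl)m3-HLH, E(spl)m2-BFM and Kaz-m1 were not called, and 3 of these kept levels of 4.37, 6.15 and 9.71 RPKM in the mutant control (E(spl)mbeta-HLH, E(spl)m3-HLH and Kaz-m1). Of 13 genes for the Notch receptor, its ligands and cofactors 1 was lower, the transcription factor Su(H) at 14.9, 6.65, 7.45 and 5.76 (list median −0.34; 0.06 under paraquat). It was not called with control-pair scaling.

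Some genes known from the early embryo were higher in the wild type control than in the mutant control. Of 36 zygotic genes of the early embryo, a list chosen after values were seen, 11 reached the minimum, and 3 of these were lower in the mutant and none higher (median −0.46), with no call under paraquat (median −0.16). The mesoderm gene sna was at 1.43, 0.0421, 0.577 and 0.103 RPKM, hb, a gap gene with maternal transcripts too, at 34.5, 13, 12.9 and 12.5, and slam, needed to form cells, at 21.8, 7.52, 7.61 and 6.57. Summed over the 36 genes the levels were 79.9, 38.6, 44.2 and 35.7 RPKM, highest in the wild type control. That order rested on hb and slam: over the other 34 genes the sums were 23.5, 18, 23.7 and 16.597, and wild type with paraquat was level with its control. sog, odd, kni and sisA had differences above 0 in the control pair, from 0.02 to 0.39, and were not called. Bearded and Enhancer of split genes are themselves transcribed in early embryos. The part of embryo transcripts in their differences was not tested.

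Chromatin regulators were mostly below the size rule. Beside Kdm5 itself, Su(var)3-3, a demethylase of the same histone position, was the other lower member of 9 histone demethylases, at 23.6, 10.8, 9.62 and 9.56 RPKM, and Kdm5 was the one call under paraquat (list median 0.21). Of 20 genes of the Sin3A complex, deacetylases and sirtuins 4 were lower and none higher (median −0.46; 0.13 under paraquat), among them the deacetylase HDAC1 at 58.7, 27.5, 23.1 and 24 and Sirt1 at 56, 26.6, 30.2 and 30.7. None of the 4 was called with control-pair scaling, nor were Su(var)3-3 and Ptip. Of 15 methyltransferases and cofactors for the mark that Kdm5 removes 1 was lower, Ptip at 29.8, 12.7, 14 and 11 (median −0.53; 0.12 and no call under paraquat). No Polycomb or trithorax gene of 24 was called (median −0.64; 0.17 under paraquat). The wild type control was the highest of the 4 libraries in the median level of each of these 4 lists.

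Dosage compensation, which doubles the output of the male X chromosome, gave 1 higher and 3 lower of 7 genes in a list chosen after values were seen (median −0.995; 1 and 1 with control-pair scaling), and 1 higher and none lower under paraquat (median 0.06). lncRNA:roX1, a noncoding RNA of the male complex that is scarce in females, was at 7.23, 30.01, 8.47 and 27.7 RPKM, 4.15-fold higher in mutant controls (3.86 to 4.47) and higher again under paraquat. Its partners msl-1, at 56.7, 26.6, 23.6 and 24.6, msl-3, at 25.5, 10.3, 11.6 and 10.5, and mof, at 17.4, 8.20, 7.21 and 7.93, were high in the wild type control alone. Of 18 DNA repair genes, chosen in the same way, 5 were lower and 1 higher (median −0.87; 2 and 1 with control-pair scaling), and 1 was higher and 1 lower under paraquat (median 0.24). The higher one was phr6-4, a photolyase, at 2.24, 11.1, 1.67 and 11.9.

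Several large lists had few or no calls. Of 78 cytosolic ribosomal protein genes 1 was higher, the germline paralog RpS19b at 0.312, 5.55, 0.216 and 4.12 RPKM (median 0.15). None of 30 proteasome, 17 vacuolar ATPase, 20 autophagy, 15 endoplasmic reticulum stress or 10 juvenile hormone genes was called at the deposited scale, with medians from −0.40 to 0.41. Of 36 lipid genes the lipoprotein apolpp was higher, at 60.1, 183, 55.3 and 101, and 2 were lower, the desaturase Fad2 and the sterol sensor SCAP, neither of them with control-pair scaling (median 0.07). Of 16 insulin, foxo and TOR genes Ilp8 and Thor were lower (median −0.33), Ilp8 alone with control-pair scaling. Neurons gave 1 of 23, ple, the tyrosine hydroxylase that makes dopamine, at 7, 21.3, 18.5 and 14.9, and phototransduction 1 of 25, the carotenoid receptor ninaD at 0.903, 7.90, 6.39 and 5.22. Of 15 neuropeptides CCHa2, at 8.9, 27.9, 33.3 and 30.7, and Nplp3 were higher. The clock factor cyc, at 33.3, 11.7, 14.9 and 9.13, was lower, 1 of 15 circadian genes. Of 18 genes of iron, copper and zinc the transporter Zip89B, at 8.99, 27.3, 6.45 and 19.9, and the transferrin Tsf1, at 22.4, 61.8, 34.2 and 39, were higher. Of 13 glycolysis and lactate genes 3 were higher and none lower (median 0.69; 6 with control-pair scaling), Gapdh1 among them. Calls in the remaining lists were 3 higher and 1 lower of 10 genes of the spermatheca and female tract, 3 higher of 11 purine, pterin and eye pigment genes, 3 higher of 5 lysosomal mannosidases (a list chosen after values were seen), 2 higher of 7 glutathione and Nrf2 genes, 1 higher of 15 ecdysone response genes, and 1 and 1 of 8 Turandot and JAK-STAT genes. Lower calls were made for twe, 1 of 6 testis genes at the minimum, cid, 1 of 6 histone variants, and Irbp, 1 of 14 damage and JNK genes, and of these twe and Irbp were not called with control-pair scaling. The same scaling gave 3 higher phototransduction genes, 2 higher damage and JNK genes, and 1 higher gene each of the circadian and juvenile hormone lists. Under paraquat calls in these lists were also few: 2 higher ribosomal protein genes (median 0.36), 2 higher purine, pterin and eye pigment genes, 1 higher gene each of the iron and spermatheca lists, 3 lower Turandot and JAK-STAT genes, 2 lower lipid genes, and 1 lower gene each of the neuropeptide, juvenile hormone and damage lists. None of the others was called there, and the median of the neuron list was −0.51.

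Genes that were close to absent in 1 control library went in both directions. mthl8, a methuselah-like receptor gene on 3L, had 0 and 1 reads in the control and paraquat libraries of wild type and 423 and 602 in those of the mutant. CR43105 had 0 and 1 reads in wild type and 67 and 74 in the mutant, and CG12506 had 0 and 3 against 73 and 24. In the other direction CG43332 had 168 and 162 reads in wild type and 2 and 0 in the mutant, and CG17570 had 78 and 67 against 2 and 4. These genes divided by genotype in both conditions. CG4440, with 71 and 13 reads in wild type and 1 in each mutant library, and CG13949, with 89 and 20 against 1 and 2, were lower in wild type with paraquat than in its control.

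Some called genes lay side by side. Of the higher genes placed on chromosome arms 31.3% (167 of 533) stood in 69 runs of neighbours called in the same direction, and of the lower genes 16.3% (76 of 466) in 32 runs. The shares that genes in random order would give were not worked out, so these are not read as clustering. The longest run, on 2R, held 6 higher genes, the maltases Mal-A6, Mal-A7 and Mal-A8, then CG12780 and the P450s Cyp6a14 and Cyp6a13. A run of 5 higher genes on 2L (BDGP6 16766566 to 16801584) held Mhc, Cyt-b5-r, CG17928 and the UDP-glycosyltransferases Ugt37C2 and Ugt37D1, and one on 3R (6025826 to 6112302) held CtsL3, Gasp, Obp83cd, Obp83ef and Obp83g. The longest lower run was the Bearded complex on 3L (14945499 to 14977631) with lncRNA:marge, at 5.09, 0.632, 2.92 and 0.615 RPKM. A run of 4 lower genes on 3R (26023821 to 26041008) was E(spl)m4-BFM, E(spl)m5-HLH, E(spl)m7-HLH and E(spl)m8-HLH. Many of these runs are families of related genes, and overlapping genes such as Obp83cd and Obp83ef can share reads.

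By chromosome the X held fewer higher genes, 4.44% of 1305, with 5.21% lower and a median of −0.25, while the large autosome arms had 6.42% to 7.67% higher and 4.86% to 7.32% lower. Chromosome 4 had 5.63% of 71 higher and 1.41% lower. Noncoding RNA genes gave 12 higher and 9 lower of 81. Short genes passed the size rule more often: of 1082 genes under 1 kb of deposited length 12.3% were higher and 9.06% lower, against 2% and 0.729% of 549 genes of at least 20 kb. The deposited length of genes such as Map205, Tsp26A and Fbp1 equals their whole annotated span, which lowers the RPKM of long genes with introns. The pseudocount then shrinks their differences. How much of the trend with length comes from this measure was not tested. By level, taken as the mean of the paraquat libraries, 13.6% of 440 genes at 100 RPKM or more were higher and 3.86% lower, against 4.97% and 5.01% of 3136 genes between 10 and 30 RPKM.

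**Figure D5:**
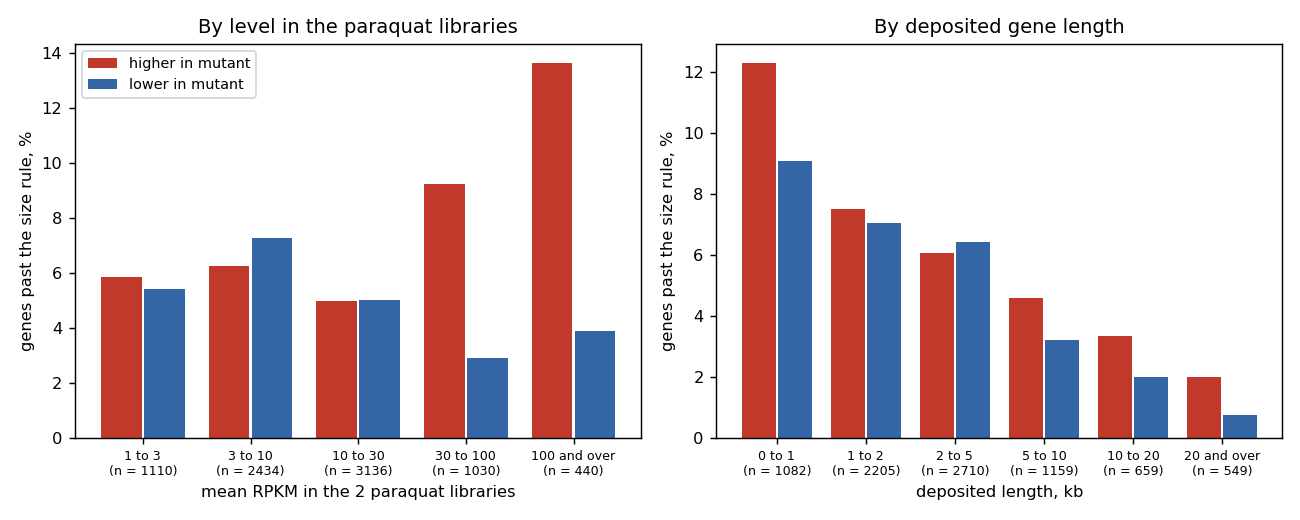
Share of genes past the size rule in the control pair (y axis, percent, red higher and blue lower in the mutant) by mean RPKM in the 2 paraquat libraries (left, from 1 RPKM there) and by deposited gene length in kb (right), with the number of genes under each bin. Higher genes are at 13.6% in the highest level bin, and both shares fall with length, from 12.3% and 9.06% to 2% and 0.729%. The part of the RPKM measure in the fall with length was not tested.

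Over both conditions, the genes with the widest gap between both mutant and both wild type libraries came from several of these groups. On the higher side they included lncRNA:CR40469, CG7542, Ser12, Drsl4, BomBc1, CG16758 and CG13947, the last at 21.9, 124, 11.5 and 118 RPKM. On the lower side they included lncRNA:CR32368, LysX, CG33109, CG12934, Kdm5 and the STING-regulated Nazo. Acbp3, an acyl-CoA-binding protein gene, was at 101, 14.6, 183 and 13.1, so its level in wild type was higher with paraquat, while the mutant was low in both. No gene of the muscle, larval serum or replication lists was among the 10 on each side, while dhd was the 1 gene of the female germline list.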

How the data were processed

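For every library and gene the authors deposited a unique read count, a length, the percent of that length covered and an RPKM value. These names are given per the file headers. The submitters' processing notes name Cufflinks and dm3. Aligner, annotation release and strand use were not stated in the sources used here. The deposited RPKM equals reads divided by deposited length and library total (largest relative gap 5.13e-07). Gene IDs missing from a table were taken as 0 reads. Symbols matched 11667 IDs, and the 406 without one held 6.39% and 6.18% of reads in the wild type and mutant controls; the mitochondrial large ribosomal RNA took 9.12% and 10.4%. Positions are from BDGP6, a later build, and the files carry no coordinates.

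A pseudocount of 1 RPKM was used, which understates changes of low genes. Intervals are exact Clopper-Pearson intervals, and the size rule was checked on simulated counts with counting error alone. The simulation held no variation between flies or libraries, so it cannot tell how often unchanged genes are called here. The rule for named genes took the 15 furthest on each side with RPKM of at least 5, Kdm5 and 2 neighbours on each side, the 10 on each side with the widest gap between both mutant and both wild type libraries, genes with under 3 reads in 1 control library and RPKM of at least 2 in the other, up to 4 members of a list, those nearest the minimum, and the longest runs. Of these 269 genes 83 overlap another annotated gene. Other named genes, and the lists so marked, were chosen after their values were seen, and the comparison, members and lists were chosen with earlier results of these data known. As alternatives, the pseudocount was set to 0.1 or 5, the minimum RPKM dropped or raised to 5, the scaling changed, the mitochondrial large ribosomal RNA taken out of the totals, and the division by length left out. Python 3.11.15, numpy 2.4.6, pandas 2.3.3 and scipy 1.17.1 were used.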

Additional observations from a re-analysis of the deposited data

Results flagged for a closer look

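Several genes differed by at least 1 in opposite directions in the control and the paraquat pair, and the difference between the pairs was not tested, since each group is 1 library. The cuticle protein gene Cpr62Bc differed by 2.10 in controls and −1.05 under paraquat, with RPKM of 14, 63.5, 79.7 and 37.9 in the wild type control, the mutant control, wild type with paraquat and the mutant with paraquat. The eggshell gene Femcoat differed by −1.20 and 1.54 (145, 62.6, 14.54 and 44 RPKM). The mitochondrial genes mt:ND3 and mt:ND5, both for subunits of respiratory complex I, differed by 1.64 and −1.81 (5.36, 18.9, 469 and 133) and by 1.03 and −2.35 (47.5, 98.2, 640.4 and 125). The neuropeptide-like gene Nplp3 differed by 1.13 and −1.02 (698, 1525, 3075 and 1512 RPKM). In all 5 the wild type libraries were farther apart than the mutant libraries on the log2(RPKM + 1) scale.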

How the results depend on the processing

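No gene called in the control pair changed sign under the other pseudocounts, minimums, scalings and totals or with median-ratio scaling of the control libraries alone. That outcome was fixed in advance and is no check. A pseudocount or a minimum cannot change a sign. The scalings shifted the median gene by at most 0.20, where a called gene differs by at least 1. With wild type under paraquat in place of its control, 100 of the 548 higher and 204 of the 481 lower genes changed sign, Mhc, Cpr62Bc, Nplp3 and Femcoat among them. The median of all genes, which is not past the rule, turned positive under both added alternatives. A pseudocount of 5 lowered the genes higher to 250 and lower to 185, those seen again under paraquat to 58 and 38, those beyond both libraries of the other genotype to 44 and 28, and Kdm5's difference to −2.78. A pseudocount of 0.1 raised the genes lower in both mutant libraries to 130 and made Kdm5 −4.33, and values not divided by length gave −4.33 too. With a minimum of 5 RPKM 48 lower genes were seen again under paraquat. Without a minimum the median difference was −0.0282. Upper-quartile scaling gave 317 lower genes, a median of −0.0645 and −3.71 for Kdm5. Median-ratio scaling of the control libraries, an alternative added once the data had been seen, gave 788 higher and 262 lower genes, a median of 0.00453 and −3.68 for Kdm5. A further alternative added in that way set wild type under paraquat in place of its control: 265 genes were then higher and 274 lower, of which 174 and 98 were calls of the control pair; the median was 0.12 and Kdm5 −2.94. Of 186 named genes past the rule, 123 kept their call at a pseudocount of 5, 158 at a minimum of 5 RPKM, 179 with median-ratio and 178 with upper-quartile scaling. Of 54 list medians 51 to 54 kept their side of the rule under each other pseudocount, minimum, scaling and total, and 50 with median-ratio scaling of the control libraries. No paired analysis was possible because each group had 1 library, and leaving out a replicate was not possible for the same reason. Motifs in promoters were not searched. Counting error is small at these depths except for genes of a few reads.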
